A study of Mus musculus with 3 samples.

Results

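The genes described here are the mouse members of 7 transcription factor families that direct the formation of tissues during development: the Sox, Pax, Lhx, Dlx and Tbx genes, the sine oculis homeobox genes, and the numbered Nkx genes. They were chosen by symbol from the GENCODE annotation of the mouse build mm10, as protein-coding genes whose symbol is such a family stem with a number and an optional letter, or Nkx with a pair of numbers. Sox6 was left out by that rule. It gave 74 of the 21827 protein-coding genes, made up of 18 Sox, 9 Pax, 8 Lhx, 6 Dlx, 6 sine oculis, 13 Tbx and 14 Nkx genes. The rule used no measured value, but it was set with earlier results of these data known.

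DNase-seq, which reads where the nuclease DNase I can cut the chromatin and so maps accessible DNA, was run on liver tissue of mouse embryos at 13.5 days. The mice were of strain C57BL/6N,129, and the labels call them WT with A20 YAC at a single YAC copy, a yeast artificial chromosome whose sequence was not analysed here. All 3 libraries belong to 1 group, biological replicates 1, 2 and 3, with a separate biosample each and 1 donor named for all of them. No treatment, other age or other tissue was part of the data, so the genes were set beside all protein-coding genes of the same libraries, and no test between groups of samples could be made.

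The families share a way of working. Each protein binds DNA through a family domain: an HMG box in Sox proteins, a paired domain in Pax proteins, a T-box in Tbx proteins, and a homeodomain in Lhx, Dlx, sine oculis and Nkx proteins, which in Lhx proteins is joined to LIM domains. Most are made in few tissues, where they set or keep the identity of progenitor cells of brain, eye, heart, muscle, limb, kidney, gut or neural crest. Where such a gene is silent, its promoter is in many tissues held by Polycomb complexes, which were not measured here, and a small group of the genes does act in liver, vessel or blood cells.

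The promoter window of a gene reached 1000 bp to each side of every start site (TSS) of its coding transcripts, and it had a peak where a peak called by the authors overlapped it by at least 1 bp. Its signal was the highest deposited peak signal in the window, or 0 with no peak. The percentile of a gene in a library is the percentage of all protein-coding genes whose promoter signal was lower. No peak was listed for 46% of genes in replicate 1, for 32.7% in replicate 2 and for 43.6% in replicate 3. A gene with the faintest of peaks therefore stood at about these percentiles. Signals were read within a library only.

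The libraries differed in the number of listed peaks, with 34369 in replicate 1, 122281 in replicate 2 and 60862 in replicate 3. Low signals were whole multiples of a step of 0.0112, 0.00347 and 0.00692 in replicates 1, 2 and 3, and if a step stands for 1 count, replicate 2 was 3.22 times and replicate 3 was 1.62 times as deep as replicate 1. Red cell precursor markers carried promoter peaks in every library in 7 of 8 cases and hepatoblast markers in 4 of 8, while the promoter of Alb had no listed peak in any. Of 4 brain markers none had a peak in replicates 1 and 3 and 3 had a faint peak in replicate 2, at signals of 0.254 to 0.486. Of 4 markers of skeletal and heart muscle, Myf5 alone had a peak, in replicate 2, while 3 of 4 markers of mesenchyme and stellate cells (Pdgfra, Col1a1 and Reln) and 1 of 4 endothelial markers (Kdr) had peaks in all 3 libraries. In such mixed tissue, fewer cells with an open site and a less open site per cell cannot be told apart.

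Promoter peaks of the 74 genes were fewer than those of genes at large in each library, and by most in replicates 1 and 3. A peak was listed for 18 of the 74 genes (24.3%) in replicate 1, where 54.0% of all protein-coding genes had a peak. In replicate 2 a peak was listed for 46 of the 74 (62.2%), with 67.3% of all genes as the background. In replicate 3 it was 20 of the 74 (27%), against 56.4% of all genes. The mean over the libraries was 37.8% ± 21.1 of the family genes and 59.2% ± 7.12 of all genes (SD, n = 3 libraries each). The larger SD of the family genes came from replicate 2, the library with the most peaks, which was also closest to the background. Without it the SD was 1.91 for the family genes and 1.74 for all genes.

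Over all 3 libraries together, 13 of the 74 genes (17.6%) had a promoter peak in each, while 51.4% of all protein-coding genes did. The genes with no peak in any library were 26 of the 74 (35.1%), against 32.1% of all genes. The share never found was thus close to that of all genes, which have fewer CpG sites in their promoters, but not to that of genes of like CpG content given further on. A peak in 1 or 2 libraries was listed for 35 genes, of which 23 had a peak in replicate 2 alone. Of the 18 genes with a peak in replicate 1, 17 had one in replicate 2 as well, and so did 19 of the 20 genes of replicate 3. With the stricter deposited peak list the mean share was 23.9% of the family genes, against 53.2% of all genes. With an equal number of the strongest peaks from each library it was 22.1%, against 51.9%.

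**Figure D1:**
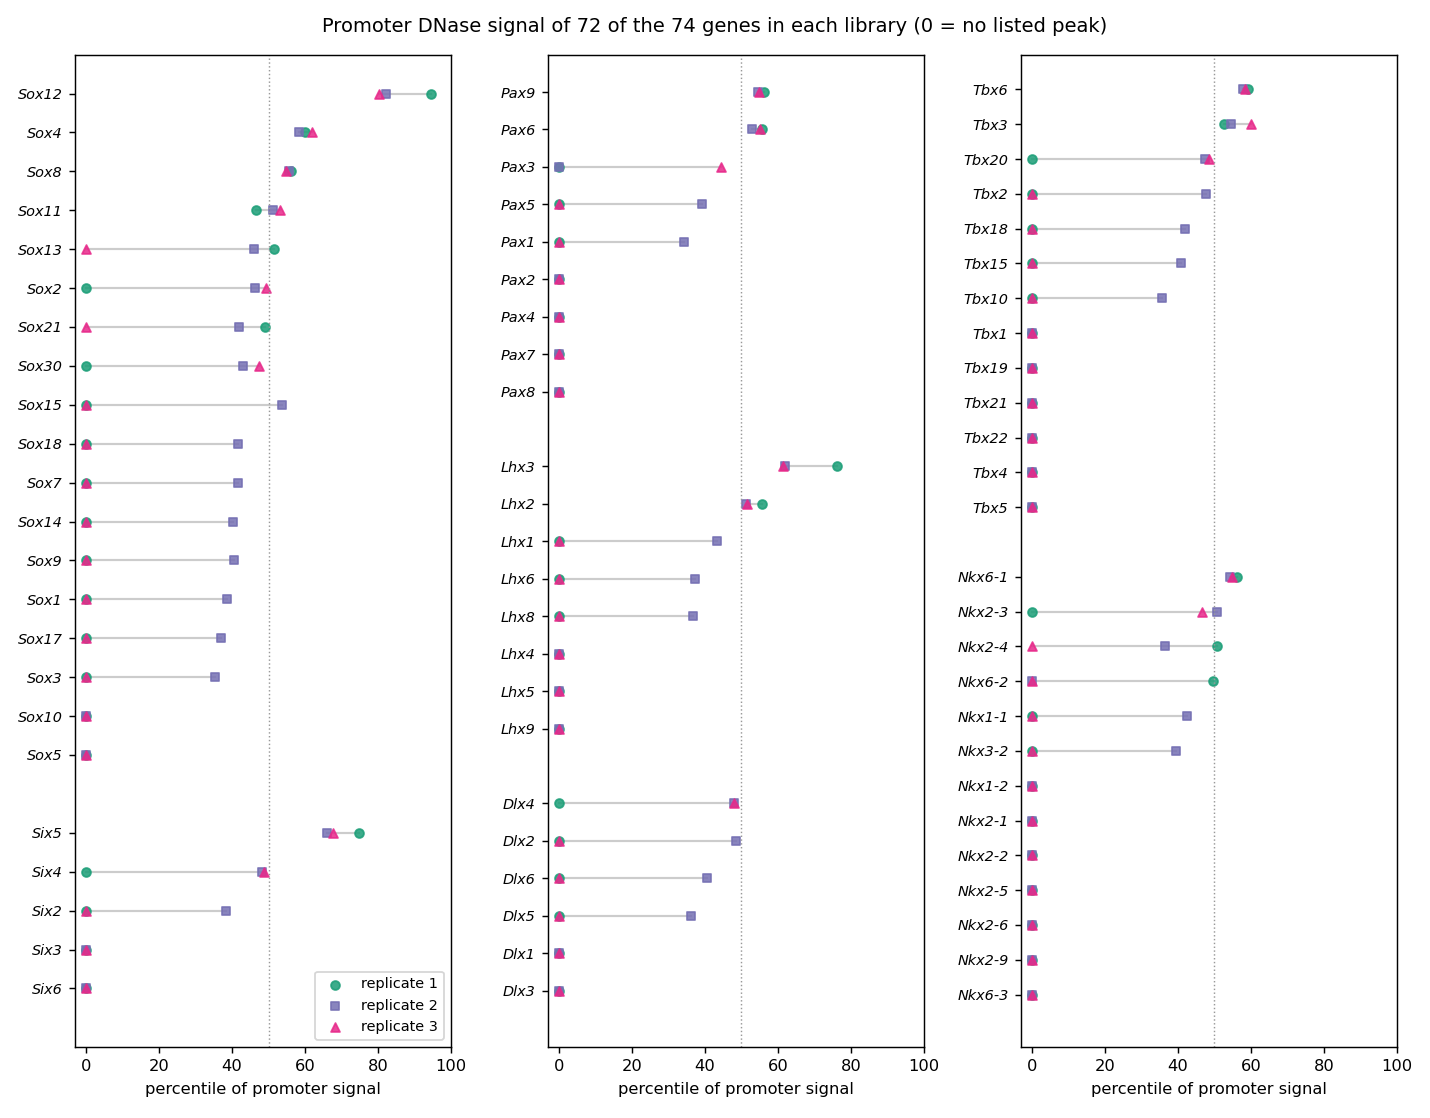
Percentile of promoter signal among all protein-coding genes (x axis, 0 where no peak is listed) of 72 of the 74 genes (rows, by family) in replicates 1, 2 and 3, with a grey line over the range of the 3 libraries. Sox12, at a mean percentile of 85.7, stands highest, 12 of the genes drawn have all of their points away from 0, and 23 genes have a point away from 0 in replicate 2 alone.

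Promoters of these families are rich in CpG sites, the dinucleotides that mark CpG islands. Their windows held a median of 49.4 CpG sites per kb, against 29.4 over all genes, and 37 of the 74 (50%) fell into the top of 5 equal classes of CpG content, which starts at 50.5 sites per kb. Most genes of that class had a promoter peak in this tissue, and fewer of its family genes did. In replicate 1, 11 of the 37 (29.7%) had a peak, with a background of 85.8% of the 4384 genes of the class. In replicate 2 it was 28 of the 37 (75.7%), with a background of 97.0%. In replicate 3 it was again 11 of the 37 (29.7%), with a background of 84.1%.

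Of the 37 genes, 8 (21.6%) had a peak in all 3 libraries, where 81.5% of the class did, and another 8 (21.6%) had none in any, where 2.87% of the class had none. The mean share over libraries was 45% ± 26.5 of the 37 genes and 89% ± 7 of the class (SD, n = 3). In the fourth class 35% of the family genes had no peak in any library, against 3.98% of all its genes, and in the third class it was 44.4%, against 9.46%. In the fourth class 25%, 60% and 35% of 20 family genes had a peak in replicates 1, 2 and 3, against 85.3%, 95.8% and 85% of all its genes. In the third class it was 22.2%, 55.6% and 22.2% of 9 family genes, against 74.4%, 90.3% and 76.8%. In the top class the mean share of the family genes was 28.8% with the stricter list and 27% with equal numbers of peaks, against 83.1% and 82% of the class. Without replicate 2 it was 29.7%, against 84.9%.

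**Figure D2:**
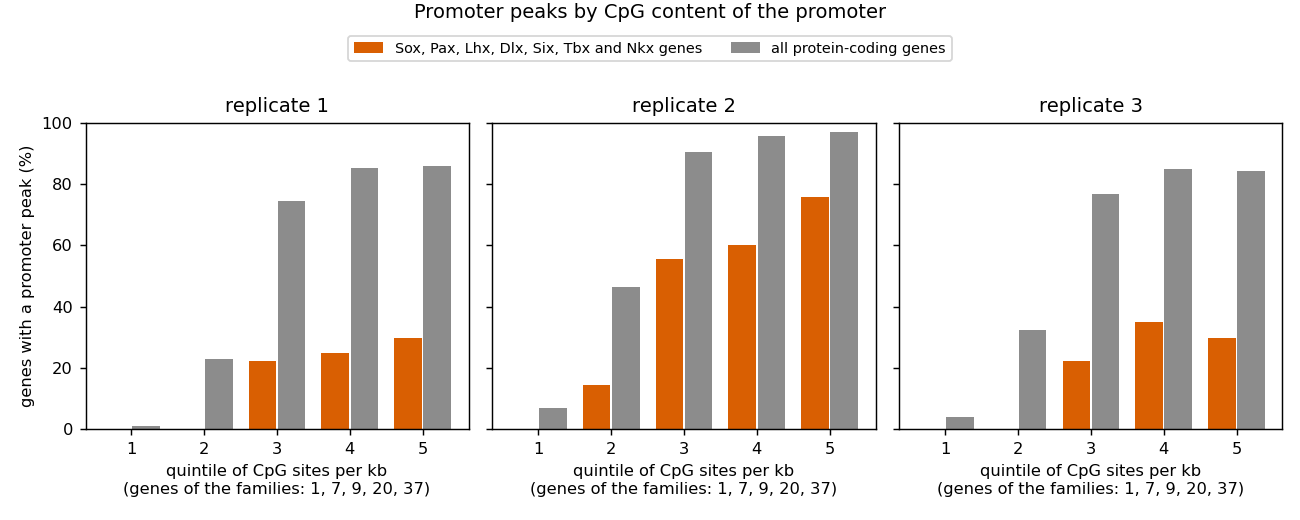
Share of genes with a promoter peak (y axis, percent) in each of 5 classes of CpG content (x axis, low to high) and in each library, for the family genes (left bar of each pair; 1, 7, 9, 20 and 37 genes) and all protein-coding genes (right bar). In the top class the left bars reach 29.7%, 75.7% and 29.7%, below the right bars at 85.8%, 97.0% and 84.1%.

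**Figure D3:**
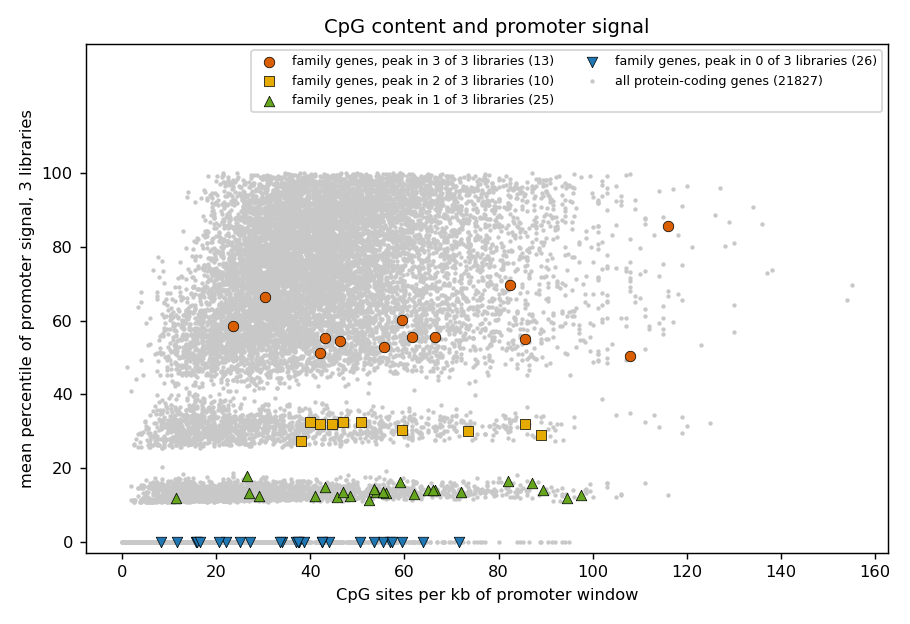
CpG sites per kb of the promoter window (x axis) and mean percentile of promoter signal over the 3 libraries (y axis), for the 74 family genes (large symbols, by number of libraries with a peak) and all 21827 protein-coding genes (grey points). The bands are genes with a peak in 0, 1, 2 or 3 libraries, and most of the CpG-rich family genes lie in the lower bands or at the foot of the upper one.

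Where the CpG-rich promoters of the families did have peaks in replicate 2, the peaks were low, but in that library the bases under them were not fewer. Bases were summed over all peaks of a window, and the widths of single peaks were not compared. The 28 family genes with a peak had a median of 638 bp under peaks, and the 4252 genes of the class with a peak had 597 bp. Their median signal was 0.504, against 7.67. With the genes without a peak included, the median was 485 bp for the 37 genes and 580 bp for the class, and the median signal was 0.462 and 7.23. Only Sox12 of the 37 lay above the median signal of the class in that library. Sox9, which directs cartilage and bile duct formation, had 4 peaks over 1357 bp of its promoter at a signal no higher than 0.427. Six2, a gene of kidney progenitors, had 4 peaks over 904 bp at a signal of up to 0.361, and Tbx18, known from heart and urinary tract, had 4 over 868 bp at up to 0.479. Positions at a false discovery rate of at most 0.05 reached less far in the family genes, over a median of 751 bp in the 37 windows and 1504 bp in the class. Among genes with a peak the medians were 948 bp and 1522 bp. No such position was listed in 8 of the 37 windows (21.6%) and in 2.42% of the class. Genes with a peak were compared in this way in replicate 2 alone, the library with the most peaks. Over all windows, with or without a peak, the mean was 96.5, 526 and 97.1 bp under peaks for the 37 genes in replicates 1, 2 and 3. For the class it was 459, 627 and 432 bp.

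**Figure D4:**
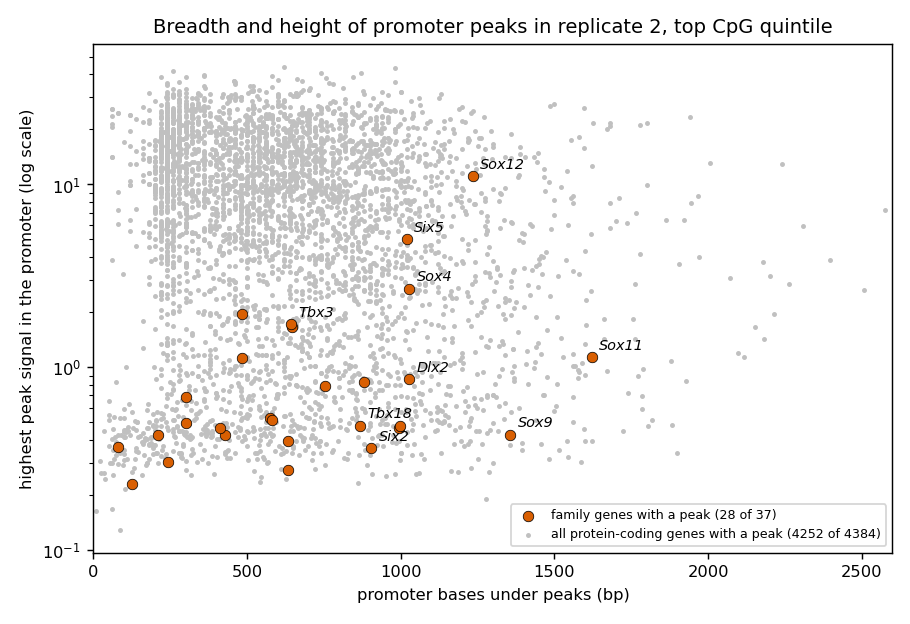
Promoter bases under peaks (x axis, bp) and highest peak signal in the promoter (y axis, log scale) in replicate 2, for 28 family genes of the top CpG class with a peak (orange) and the 4252 genes of that class with a peak (grey). Sox9 and Sox11 lie far to the right at low signal, with 1357 and 1621 bp under peaks, and Sox12 at 11.1 is the highest orange point.

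Around the most upstream TSS the bin with the most family genes of the top CpG class lay close to the TSS, as in the class. In replicate 2, however, their share fell off less downstream than that of the class. In 100-bp bins, the highest share of the 37 was 13.5% in replicate 1, while replicates 2 and 3 reached 51.4% and 18.9%. Over the class it was 69.8%, 81.4% and 70.7%, in the bin that ends at the TSS in all 3 libraries. The bin with the most family genes lay within 200 bp of the TSS in each library. From 200 to 300 bp downstream, replicate 2 had 43.2% of the 37 and 35.7% of the class. From 500 to 600 bp downstream it had 45.9% and 41.4%. More than 3000 bp from the TSS, replicate 2 bins ranged from 0 to 18.9% of the 37 genes, and from 3.56% to 4.93% of the class. With 37 genes, 1 gene moves a bin by several percentage points.

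**Figure D5:**
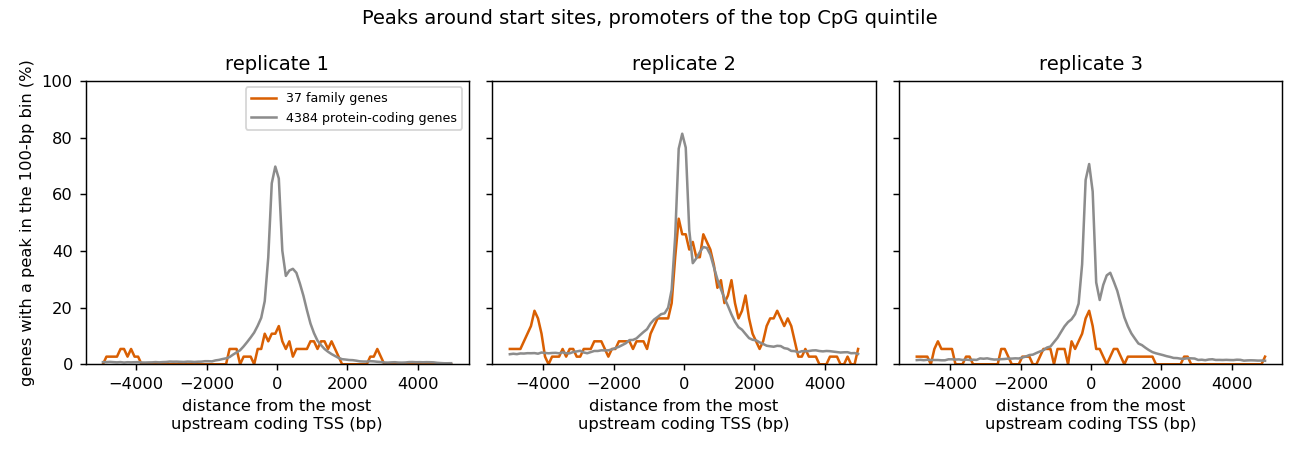
Share of genes with a peak (y axis, percent) in 100-bp bins by distance from the most upstream coding TSS (x axis, bp, negative upstream) in each library, for 37 family genes (orange) and all 4384 protein-coding genes (grey) of the top CpG class. The orange line peaks at 13.5%, 51.4% and 18.9%, under the grey line at 69.8%, 81.4% and 70.7%.

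The 13 genes with a promoter peak in every library included Sox4, Sox8, Sox11, Sox12, Pax6, Pax9, Lhx2, Lhx3, Six5, Tbx3, Tbx6 and Nkx6-1. In all 13 the strongest peaks of the 3 libraries shared bases, from 60 bp in Six5 to 220 bp in Pax6 and Sox12. Their signals were low for such genes. The median of the 13 was 1.24 in replicate 1, 1.72 in replicate 2 and 1 in replicate 3, against 3.13, 7.78 and 4.96 over the 11223 genes with a peak in all libraries. Sox12, Lhx3 and Six5 lay above that median in replicate 1, and Sox12 alone did in replicates 2 and 3.

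The SoxC genes Sox4, Sox11 and Sox12, which act together in neural and mesenchymal progenitors, were the one subfamily of more than 1 gene with a peak in all libraries at every member. Sox12 (ENSMUSG00000051817.8, on the minus strand of chromosome 2 from 152393611 to 152398063) had the highest promoter signal of the 74 genes. Its signals were 6.25, 11.1 and 6.94 in replicates 1, 2 and 3, at percentiles of 94.6, 82.2 and 80.3. It ranked above every other member in each library, and the mean percentile was 85.7 ± 7.74 (SD, n = 3). The promoter held 5 peaks in replicate 2. A peak from 257 to 38 bp upstream of the TSS was listed in all 3 libraries, with signals of 4.38, 8.75 and 5.32 in replicates 1, 2 and 3. The strongest peak of the promoter did not cover the TSS either: in replicate 2 it began 977 bp and ended 698 bp upstream of it.

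The stretch under that peak is shown because it carries the strongest promoter signal of the set. It is chr2:152398775-152398974 of mm10, read on the minus strand, the strand of the gene, 5′ to 3′. It spans 911 to 712 bp upstream of the TSS, outside annotated exons. Capitals mark bases inside deposited footprints of all 3 libraries, the short stretches that the authors listed as protected from cutting, and they hold the motif GGGCGG of SP and KLF factors. That string lies on either strand of the strongest replicate 2 peak in 11 of the 13 genes (84.6%), and in 73.1% of the 11223 genes with a peak in all libraries. In the 300 bp around the TSS the order was the reverse, with 8 of the 13 (61.5%) and 74.4% of the 11223.
Sox12: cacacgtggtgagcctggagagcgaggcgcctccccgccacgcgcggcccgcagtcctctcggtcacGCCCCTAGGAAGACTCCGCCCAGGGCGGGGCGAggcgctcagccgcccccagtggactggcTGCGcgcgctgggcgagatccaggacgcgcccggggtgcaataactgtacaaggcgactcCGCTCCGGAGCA

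Sox4, which is also known for B cell development, had signals of 1.62, 2.69 and 2.08 in replicates 1, 2 and 3 (percentile 60.1 ± 1.67, SD, n = 3). The 3 libraries lay close together, and its strongest peak covered the TSS in each. Sox11, a gene of young neurons, had signals of 0.414, 1.13 and 0.796, at percentiles of 46.6, 51.2 and 53.1. In replicate 1 that is barely above the 46% of genes with no peak. Its replicate 2 peaks nevertheless covered 1621 bp, the most of any of the 37 family promoters of the top CpG class. With the stricter list the mean percentile of Sox11 was 34.8 ± 30.1 (SD, n = 3), a wide spread between the libraries.

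The proximal promoters of both are shown for comparison, read on the minus strand of each gene. Sox4 is chr13:28953715-28953914, from 201 to 2 bp upstream of its TSS, and Sox11 is chr12:27342701-27342900, from 326 to 127 bp upstream. Capitals again mark footprints of all 3 libraries, and the printed Sox11 stretch has none. Both hold the motif CCAAT of the factor NFY, in the Sox4 stretch outside the shared footprints.
Sox4: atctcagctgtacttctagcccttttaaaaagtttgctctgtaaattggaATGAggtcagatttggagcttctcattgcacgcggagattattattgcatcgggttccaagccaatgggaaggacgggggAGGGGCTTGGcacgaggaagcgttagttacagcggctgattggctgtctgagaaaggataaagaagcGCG
Sox11: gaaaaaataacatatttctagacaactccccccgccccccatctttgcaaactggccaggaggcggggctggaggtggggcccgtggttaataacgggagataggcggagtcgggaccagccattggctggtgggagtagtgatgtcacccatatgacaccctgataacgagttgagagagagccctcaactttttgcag

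Sox8, a SoxE gene of testis and neural crest, had signals of 1.24, 1.96 and 0.955 in replicates 1, 2 and 3 (percentile 55.5 ± 0.8). A TSS of the antisense gene 2810468N07Rik lies in the same window, so the peak cannot be assigned to either gene. Its SoxE relatives differed from it: Sox9 had a peak in replicate 2 alone and Sox10, a gene of neural crest and glia, in none. The SoxF genes Sox7, Sox17 and Sox18, which act in endothelial cells, had a peak in replicate 2 alone, at signals of 0.465, 0.32 and 0.462. Of the SoxB1 genes, known from neural progenitors, Sox2 had peaks in replicates 2 and 3 at 0.684 and 0.533, and Sox1 and Sox3 in replicate 2 alone.

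Six5, a homeobox gene needed for a clear lens in the mouse, had the second highest mean percentile, although Lhx3 ranked above it in replicate 1. Its signals were 3.21, 5.02 and 3.29 in replicates 1, 2 and 3, at percentiles of 74.9, 66.1 and 67.6 (mean 69.5 ± 4.71). Six4, its closest relative, had peaks of 0.83 in replicate 2 and 0.498 in replicate 3 and none in replicate 1. Six3 and Six6, the eye and forebrain pair of the family, had no peak in any library.

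The Six5 stretch is shown for the footprint in its middle. It is chr7:19093978-19094177 of mm10 on the plus strand, 616 to 417 bp upstream of the TSS, with capitals as above. The longest capital run holds GCCTGCGC, which differs by 1 base from the NRF1 motif GCATGCGC. This variant was added to the search after the sequence was seen. It lies in the strongest replicate 2 peak of 2 of the 13 genes (15.4%), Six5 among them, and of 11.6% of the genes with a peak in all libraries, and the match is a description and not a bound site. Within 500 bp of the TSS, the mean percentile of Six5 was 47.4 ± 41.2 (SD, n = 3). The replicate 3 peak, which ended 534 bp upstream, lay outside that window.
Six5: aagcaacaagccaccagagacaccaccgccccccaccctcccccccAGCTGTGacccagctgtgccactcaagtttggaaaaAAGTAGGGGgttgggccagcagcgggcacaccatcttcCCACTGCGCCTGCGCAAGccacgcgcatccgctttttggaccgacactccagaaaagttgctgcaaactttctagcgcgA

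Lhx3, a gene of pituitary and motor neurons, had signals of 3.35, 3.66 and 2.02 in replicates 1, 2 and 3 (percentile 66.5 ± 8.32), higher in rank in replicate 1 than in the others. The peak covered the upstream TSS in all libraries, and the TSS 1714 bp downstream had none. A TSS of the antisense gene Gm27196 lies in the window, and the peak cannot be assigned to either gene. Lhx4, its closest relative, had no peak.

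Lhx2, known from eye, forebrain and the stellate cells of the fetal liver, had signals of 1.19, 1.12 and 0.665 (percentile 52.8 ± 2.52). Those peaks belonged to the TSS 11478 bp downstream of the first, whose own window had a peak of 0.281 in replicate 2 alone. Counted at the first TSS, the mean percentile of Lhx2 was 12.6 ± 21.8, and with the stricter list it was 34.3 ± 29.7 (SD, n = 3). Lhx9, its relative in gonad and brain, had no peak.

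Pax6 and Pax9 were likewise open away from their first TSS. Pax6, the regulator of eye, brain and pancreatic islet, had signals of 1.18, 1.38 and 1 in replicates 1, 2 and 3 (percentile 54.5 ± 1.44). They lay around the TSSs from the third onwards, 6291 bp and more downstream of the first, which had 0.448 in replicate 2 alone. Counted there, the mean percentile was 14.4 ± 24.9 (SD, n = 3). Pax9, a gene of pharyngeal pouches, teeth and vertebrae, had signals of 1.24, 1.69 and 0.976 (percentile 55.2 ± 0.956) at its second TSS, 3872 bp downstream of the first, where no library had a peak. Pax1, the relative of Pax9, had 0.229 in replicate 2 alone, and Pax4, the relative of Pax6 in pancreatic islets, had no peak.

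Tbx6, which sets the fate of the mesoderm that forms somites, had signals of 1.55, 2.57 and 1.45 in replicates 1, 2 and 3 (percentile 58.5 ± 0.686), the smallest spread of the 13. The peak began about 800 bp upstream of the TSS, between 820 and 782 bp in the 3 libraries, and within 500 bp of the TSS there was none. Its promoter had 23.5 CpG sites per kb, the fewest of the 13. Tbx3, a gene of limb and heart that also drives growth of hepatoblasts, had signals of 0.896, 1.72 and 1.75 (percentile 55.6 ± 3.83), next to or over the TSS. With the stricter list its mean percentile was 38.2 ± 33.2 (SD, n = 3).

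Of the nearest relatives of Tbx3, Tbx2 had 0.785 in replicate 2 alone, and the limb genes Tbx4 and Tbx5 had no peak. Tbx5 lies 147943 bp from Tbx3. Tbx20, a heart gene, had 0.757 in replicate 2 and 0.478 in replicate 3.

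Nkx6-1, known from insulin cells and motor neuron progenitors, was the Nkx gene with a peak in all libraries, at 1.23, 1.65 and 0.969 in replicates 1, 2 and 3 (percentile 55 ± 0.966). The 3 peaks shared 80 bp upstream of the TSS. Nkx6-2 had a peak in replicate 1 alone, at 0.661, and Nkx6-3 had none.

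The Nkx6-1 and Tbx3 stretches are shown with their motifs. Nkx6-1 is chr5:101665301-101665440 on the minus strand, from 444 to 305 bp upstream of its TSS, and on either strand it holds the NFY string CCAAT, the SP and KLF string GGGCGG and the FOXA motif TGTTTAC. Tbx3 is chr5:119670521-119670668 on the plus strand, from 148 to 1 bp upstream of its most upstream TSS, and holds GGGCGG. Capitals mark footprints of all 3 libraries, of which the Tbx3 stretch has none.
Nkx6-1: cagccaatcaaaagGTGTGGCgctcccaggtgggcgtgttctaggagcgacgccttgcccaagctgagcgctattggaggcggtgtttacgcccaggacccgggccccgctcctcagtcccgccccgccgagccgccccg
Tbx3: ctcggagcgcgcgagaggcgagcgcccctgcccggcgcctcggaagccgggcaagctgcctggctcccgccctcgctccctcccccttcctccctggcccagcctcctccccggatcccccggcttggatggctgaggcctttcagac

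No Dlx gene, a family of forebrain, jaw and limb, had a peak in all libraries. The highest was Dlx4, with 0 in replicate 1, 0.806 in replicate 2 and 0.457 in replicate 3. Dlx2, Dlx5 and Dlx6 had a peak in replicate 2 alone, and Dlx1 and Dlx3 in none. Each Dlx gene lies beside another within 15150 bp, and the linked pairs Dlx1 with Dlx2 and Dlx3 with Dlx4 differed in having a peak.

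Among the other genes with peaks in a pair of libraries were Nkx2-4, Sox13 and Sox21 in replicates 1 and 2, and Nkx2-3 and Sox30 in replicates 2 and 3. Of the 10 genes of this kind, Nkx2-3, which shapes the vessels of spleen and gut, had the highest replicate 2 signal, at 1.05 in replicate 2 and 0.388 in replicate 3. Sox13, a SoxD gene, had 0.806 in replicate 1 and 0.663 in replicate 2 at the upstream of its TSSs, and the TSSs 31107 bp and more downstream had none. The testis gene Sox30 had 0.514 in replicate 2 and 0.422 in replicate 3. The 23 genes with a peak in replicate 2 alone ranged there from 0.229 in Pax1 to 1.53 in Sox15, with a median of 0.424. Besides those already named they were Lhx1, Lhx6, Lhx8, Nkx1-1, Nkx3-2, Pax5, Sox14, Tbx10 and Tbx15. Pax3, a gene of muscle progenitors and neural crest, was the one gene with a peak in replicate 3 alone, at 0.284.

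The 26 genes without a listed peak included regulators of heart (Nkx2-5, Tbx5), of thyroid and lung (Nkx2-1, Pax8), of kidney (Pax2), of pituitary (Lhx4, Tbx19), of neural crest (Sox10) and of muscle (Pax7). They also included Tbx21, the regulator of type 1 helper T cells. The rest were Dlx1, Dlx3, Lhx5, Lhx9, Nkx1-2, Nkx2-2, Nkx2-6, Nkx2-9, Nkx6-3, Pax4, Six3, Six6, Sox5, Tbx1, Tbx4 and Tbx22. Their windows had a median of 37.4 CpG sites per kb, against 59.5 in the 13 genes with a peak in all libraries, with a wide overlap, since the 26 genes ranged from 8.28 to 71.5 and the 13 genes from 23.5 to 116. Members of the top CpG class among the 26 were Lhx4, Lhx5, Nkx2-1, Pax2, Pax7, Six3, Tbx1 and Tbx21.

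A list of 11 members with a known role in liver, vessel or blood cells was read beside the rest: Sox4, Sox7, Sox9, Sox13, Sox17, Sox18, Lhx2, Pax5, Tbx3, Tbx21 and Nkx2-3. Of the 11, 3 had a peak in all libraries (Sox4, Lhx2 and Tbx3) and 10 had a peak in at least 1 library. Of the other 63 genes, 10 had a peak in all libraries and 25 had none in any. A peak in all libraries was thus listed for 27.3% of the 11, 15.9% of the 63 and 51.4% of all protein-coding genes. The shares were 36.4%, 90.9% and 36.4% of the 11 genes in replicates 1, 2 and 3, against 22.2%, 57.1% and 25.4% of the 63. Over all protein-coding genes they were 54.0%, 67.3% and 56.4%, so the 11 lay below genes at large in replicates 1 and 3. The mean share was 54.5% ± 31.5 of the 11 and 34.9% ± 19.3 of the 63 (SD, n = 3). The share of the 11 was higher than that of the 63 in each of the 3 libraries, and in replicates 1 and 3 it rests on 4 of the 11 genes. The 11 also had more CpG sites, a median of 59.5 per kb against 47. In the top CpG class were 63.6% of the 11 and 47.6% of the 63, and the part of CpG content was not tested. Pax5, which commits cells to the B lineage, had 0.389 in replicate 2 alone.

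For regions away from start sites, the share of family genes with one nearby stood near that of all genes. Beside genes of like CpG content it was lower in the top CpG class, about equal in the third and higher in the fourth. The mean number of regions per gene was lower in each of these 3 classes. A distal region, more than 1000 bp from any TSS and with a peak in all 3 libraries, lay within 50000 bp of 38 of the 74 genes (51.4%), against 48.6% of all protein-coding genes. The mean number was 1.01 per gene in both. In the top CpG class it was 16 of the 37 family genes (43.2%), against 58.3% of the class. In the fourth class it was 65% of 20 family genes, against 59.8%, and in the third 55.6% of 9, against 56.6%. Within 20000 bp the top class had 32.4% of the family genes and 34.1% of all its genes. Regions of at least 1 library averaged 5.3 per family gene and 7.43 per gene over all genes. Of the 26 genes without a promoter peak, 15 had a distal region of all 3 libraries within 50000 bp, and of the 13 genes with a peak in all libraries 9 did. With the stricter list 25 of the 74 (33.8%) had such a region, against 34% of all genes.

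Sox12 and Tbx2 had the most, with 5 each. The strongest at Sox12 lay 8118 bp upstream of its TSS, at chr2:152406181-152406400 between genes. Its signals were 4.42, 14.4 and 14.7 in replicates 1, 2 and 3, above 90.4%, 98% and 97.9% of the peaks of each library. Of the 5 at Tbx2, 4 lay inside the neighbouring gene Bcas3, and 4 near Nkx1-2 lay inside Fgfr2 or Oat, so nearness does not assign them. Sox4 had 3, and the strongest, at chr13:28957861-28958080, lay 4148 bp upstream of its TSS with signals of 4.09, 5.51 and 3.82.

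Sox5, a cartilage and neuron gene with no promoter peak, had no distal region of any library within 50000 bp of its start sites. Inside the body of the gene, 29 regions of at least 1 library were found, 5 of them in all 3. The gene is long, from 143828425 to 144781977 on chromosome 6, and these numbers were not set against its length. Pax6 and Tbx20 had peaks at their promoters but no distal region of any library within 50000 bp.

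Motifs were counted in the 300 bp from 250 bp before to 50 bp after each coding TSS, on both strands. CCAAT was found in 47 of the 74 genes (63.5%) and in 46.6% of all genes. Within the top CpG class it was in 24 of the 37 (64.9%) and in 37.9% of the class. The ETS motif CCGGAAG stood the other way, in 3 of the 74 (4.05%) and in 13.5% of all genes, and in 1 of the 37 (2.7%) and in 17% of the class. The NRF1 motif GCATGCGC was in none of the 74 and in 4.4% of all genes. GGGCGG was in 51 of the 74 (68.9%) and in 51.2% of all genes, but in 73% of the 37 and in 84.4% of the class.

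The GATA motif AGATAA, of the factors that lead red cell formation, was in 10 of the 74 (13.5%) and in 14.4% of all genes. Within the top CpG class it was in 4 of the 37 (10.8%) and in 3.99% of the class. The FOXA motif TGTTTAC, of factors that open liver enhancers, was in 1 of the 74 (1.35%) and in 4.7% of all genes. Within the top CpG class it was in 1 of the 37 (2.7%) and in 2.58% of the class. The CRE motif TGACGTCA was in 1 of the 74 (1.35%) and in 2.91% of all genes. In the strongest replicate 2 peaks of the genes with a peak in all libraries, CCAAT was in 10 of the 13 (76.9%) and in 37.2% of the 11223, and the peaks were somewhat longer in the 13, at a median of 280 bp and 240 bp. In the 300 bp around the TSS of the same genes there was no such excess, with CCAAT in 6 of the 13 (46.2%) and in 47.5% of the 11223. CCGGAAG and AGATAA were in none of the 13 and in 20.6% and 2.97% of the 11223. These shares describe letters in a window, and the part of base composition in them was not tested.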

How the data were processed

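For each library the authors deposited 2 peak lists, a false discovery rate file and a footprint file, each made from the filtered alignments of the library concerned, per the listing deposited beside it. The peak caller is not given in the sources used here, nor is its version. Peak signal is the value in the signal column of the longer deposited list, and the shorter, stricter list was an alternative. The deposited false discovery rate file gives a q-value per interval, at most 0.05. The deposited footprint files hold a constant score of 0.01 in every row, so footprints were used by position only.

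Gene models were those of GENCODE M21 (basic set, mm10), with genes of 1 symbol counted once and the mitochondrial chromosome left out. Promoter windows, peak overlap, CpG content and motifs were computed with Python 3.11.15, numpy 2.4.6, pandas 2.3.3 and pysam 0.24.0, with sequence from GRCm38.p6, the assembly of mm10. The scripts were tested on simulated data with known peaks. Peaks of the 3 libraries that overlapped were merged for the distal regions. With 1 group, each value stands per library or as mean and SD, and nothing was tested. Read totals were not used, and no counting interval could be given. Whether the spread between libraries is technical is not known, since the labels name 1 donor.

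The members, lists and motifs were chosen with earlier results of these data known. Values in every library are given for genes with a peak in all 3 and for the highest gene of each family, and other members by group. Alternatives were the stricter list, equal numbers of peaks, windows of 500 and 2500 bp, the most upstream TSS alone, peak midpoints, each library left out, and distal distances of 20000 and 100000 bp. Some members are counted in the totals but not reported here singly.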

Additional observations from a re-analysis of the deposited data

How the results depend on the processing

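The number of genes with a promoter peak in all libraries, 13, was 9 with the stricter list, 12 with equal numbers of peaks, 10 at the most upstream TSS alone, and 11 and 14 with windows of 500 and 2500 bp. Leaving out a library gave 13 to 19. The mean share of family genes with a peak, 37.8%, was 25.7% to 44.6% with a library left out, and in the top CpG class 45% was 29.7% to 52.7%. The median percentile over the 74 genes was 0, 37.8 and 0 in replicates 1, 2 and 3, with a mean of 12.6 ± 21.8 (SD, n = 3). That mean was 0 with the stricter list, with equal numbers of peaks and without replicate 2, and 18.9 without replicate 1 or 3. In every setting run, the mean share of the family genes lay below that of all protein-coding genes. The number of genes with a distal region of all libraries, 38, or 51.4% against 48.6% of all genes, was 25 with the stricter list (33.8% against 34%), and 38 to 53 with a library left out (51.4% to 71.6% against 48.7% to 68.3%). It was 26 within 20000 bp (35.1% against 28.3%) and 50 within 100000 bp (67.6% against 64.7%). Of single genes, Pax9 stood at a percentile of 0 at the most upstream TSS and Tbx6 at 0 within 500 bp. For the 23 promoters listed in replicate 2 alone, the part of depth, known only from the signal steps, was not tested. No paired analysis was possible because the libraries form 1 group, and gene sets were set side by side within each library.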
